A study of Mus musculus with 72 samples.

Results

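The 8 genes described here belong to sphingosine-1-phosphate (S1P) metabolism and signalling and were followed in mouse melanoma cell lines given the neuropeptide GRP, the GRPR antagonist RC-3095 (RC), or both. They are the sphingosine kinases Sphk1 and Sphk2, the S1P receptors S1pr1, S1pr2 and S1pr3, the S1P lyase Sgpl1 and the S1P phosphatases Sgpp1 and Sgpp2, 8 of the 50600 genes in the count table. They were chosen by pathway, with the responses of the lines to GRP already known, so the difference between GRP and mock, and that between GRP+RC and GRP, which uses the same GRP libraries, are given as descriptions without p-values. The comparison of GRP+RC with RC uses no library of either GRP or mock cells and was tested, as were RC against mock, which shares the mock libraries, and the levels of the untreated lines. The p-values of these tests do not allow for the choice of the members with earlier results of these data known.

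S1P is a signalling lipid made inside the cell by phosphorylation of sphingosine. SPHK1 is a mostly cytosolic kinase that is recruited to the plasma membrane, whereas SPHK2 is found largely in the nucleus and on internal membranes. S1P is exported and acts on a family of G-protein-coupled receptors, of which S1PR1 couples to Gi, and S1PR2 and S1PR3 couple to several G proteins including Gq and G12/13. The phosphatases return S1P to sphingosine, and the lyase cleaves it irreversibly. GRPR, the receptor for GRP, is itself a Gq-coupled receptor.

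Each of the 6 lines came from 1 mouse melanoma carrying Tyr::NRAS with the Q61K mutation, expressed in the melanocyte lineage. Lines 1057 and 1064 are female, lack Cdkn2a (Cdkn2a-/-), carry Tyr::CreA/° and Cdh1dF/dF, and express Grpr on their own. The male line 1181 is also Cdkn2a-/- and is labelled Cdh1dF/dF, but it has no Cre (°/°). The female line 1014 has Tyr::NRASQ61K/° as its only listed allele. Both were transfected with CMV::Grpr/tGFP (1181-Grpr and 1014-Grpr) or CMV::tGFP (1181-Ctrl and 1014-Ctrl) and kept under geneticin selection, so their receptor is driven by a viral promoter. Cells were starved for 18 h in 0.5% FCS and treated for 4 h with 0.1% DMSO (mock), 10 nM GRP, 1 µM RC, or GRP and RC together, with 3 libraries in each of the 24 groups of line and treatment. The study describes its cell culture experiments in general as biologically replicated, but the labels do not say what separates these libraries, and p-values measure the spread between them.

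Between 19512882 and 46862053 reads were counted per library. A count of 3, taken as the floor, corresponds to at most 0.154 CPM (counts scaled to library size) in any library and covers counting error only. All 7 melanocyte markers looked at (Mitf, Sox10, Dct, Tyr, Tyrp1, Pmel and Mlana) had a mean of at least 1 TPM (transcripts scaled for length and library size) in every line. The summed leukocyte markers reached at most 0.11 TPM in any library, the fibroblast markers 2.27 TPM and the keratinocyte markers 2.22 TPM. Of the endothelial markers, Cdh5 averaged 3.99 TPM in 1057 and 3.21 TPM in 1064, while Pecam1 and Kdr stayed under 1 TPM on average in every line. Grpr averaged 274 CPM in mock cells of 1057, 1001 CPM in 1064, 125 CPM in 1014-Grpr and 11.8 CPM in 1181-Grpr. After GRP it averaged 203, 496, 536 and 46.4 CPM in these lines, in the same order. In 1181-Grpr the mock libraries held 8.46 to 17.9 CPM and the GRP libraries 19.0 to 80.7 CPM. Cdh1, the gene of E-cadherin, averaged 17.1 CPM in mock cells of 1181-Grpr and 19.3 CPM in those of 1181-Ctrl. In mock cells of 1057 and 1064 it averaged 0.010 and 0.029 CPM. The study describes 1181 as Ecad-positive, although its label reads Cdh1dF/dF. Xist and Ddx3y were looked at as checks of sex. In mock cells Xist averaged 206 ± 17.3 CPM in 1181-Grpr and 0.350 ± 0.282 CPM in 1181-Ctrl (SD, n = 3). Ddx3y averaged 51.8 and 64.7 CPM in the same groups. The lowest Xist value in 1181-Grpr was 192 CPM, although 1181 is a male line, and the cause was not tested. Apart from this, 2 libraries went against their labels. The library labelled 1014-Ctrl mock replicate 2 held 1165 counts of Grpr and 1557 counts of Ddx3y, a Y-linked gene, although 1014 is a female line with a control vector. The library labelled 1181-Grpr GRP+RC replicate 2 held 0 counts of both, although 1181 is a male line given Grpr. Both were kept, and the values they change most are also given without them. Of 84 log2 fold changes of members in comparisons of treatments in 1014-Ctrl and 1181-Grpr and of untreated lines, 10 changed sign without them, none of which was called either way. The number of members called in each treatment comparison was equal with and without them.

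Each member lies on a chromosome of its own in GRCm38. Sphk1 spans chr11:116530925-116536674 on the plus strand, and S1pr3 spans chr13:51408639-51422797 on the plus strand. S1pr2 spans chr9:20962361-20976781 and S1pr1 spans chr3:115710433-115715072, both on the minus strand. RefSeq (GRCm38.p6) gives several start sites for Sphk1, and the 250 bases before them were searched on both strands for 5 motifs together with those of the other members. The sequences below are those before the starts of Sphk1 and S1pr3, the members with the largest log2 fold changes after GRP in 1057, with the motif in capitals, and they are shown because the data concern the transcript levels these regions belong to. An E-box (CACGTG), found in 6.02% of the 32851 windows of this length in RefSeq, lay 95 bases before the Sphk1 start at 116532444 (window chr11:116532194-116532443, plus strand), and a GC box (GGGCGG), found in 32.7% of the windows, lay 20 bases before the S1pr3 start (window chr13:51408368-51408617, plus strand):
Sphk1: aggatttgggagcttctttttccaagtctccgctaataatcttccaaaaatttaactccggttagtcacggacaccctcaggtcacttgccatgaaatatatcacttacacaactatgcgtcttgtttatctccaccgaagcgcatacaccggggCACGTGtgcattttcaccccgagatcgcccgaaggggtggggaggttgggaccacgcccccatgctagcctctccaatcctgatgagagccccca
S1pr3: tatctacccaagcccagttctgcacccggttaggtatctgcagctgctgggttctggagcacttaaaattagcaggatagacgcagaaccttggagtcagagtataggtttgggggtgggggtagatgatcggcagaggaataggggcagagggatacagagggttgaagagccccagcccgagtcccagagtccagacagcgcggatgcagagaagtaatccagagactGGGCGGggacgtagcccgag

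A further pair of short sites was found before other starts. The AP-1 motif TGANTCA, in which N stands for any base and which 6.75% of the windows hold, occurred 124 bases before the Sphk1 start at 116531911, inside an annotated exon of another Sphk1 transcript (chr11:116531776-116531804, plus strand). The CRE motif TGACGTCA, held by 1.55% of the windows, occurred 181 bases before the S1pr2 start (chr9:20976956-20976985, minus strand):
Sphk1, AP-1 site: gagcgtgtcgcTGAGTCAccttctcggaa
S1pr2, CRE site: taagagagctgTGACGTCAcgcggccgtga
These are matches of letters and were not tested for binding. The TEAD motif GGAATG, in 12.6% of the windows, was found before 1 Sphk1 start and before no other member searched. More windows were searched for Sphk1 than for any other member, and each share is for a single window. A match somewhere before Sphk1 is therefore likelier than these shares. A GC box was also present before the starts of Sphk2, Sgpl1 and Sgpp2, an E-box before that of Sgpp2, and none of the 5 motifs before that of Sgpp1, while no window of S1pr1 was searched.

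Sphk1 had the largest difference between GRP and mock of any member in 1057 and in 1014-Grpr. In 1057 its level was 17.7, 15.4 and 15.3 CPM in the mock libraries and 382, 396 and 377 CPM in the GRP libraries (CPM scaled by TMM over all 72 libraries). The groups were far apart, with means of 16.1 ± 1.38 and 385 ± 9.93 CPM (SD, n = 3) and a log2 fold change of 4.60 ± 0.048 (SE). RC alone gave 84.8, 79.2 and 78.7 CPM in this line, and GRP with RC gave 263, 259 and 255 CPM. The 4 treatments of 1057 therefore did not overlap at any point, in the order mock, RC, GRP+RC and GRP.

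The antagonist alone was followed by higher Sphk1 in 1057. RC against mock gave a log2 fold change of 2.32 ± 0.048 (adjusted p = 1.53e-15, quasi-likelihood test of edgeR, adjusted by Benjamini-Hochberg over all genes tested), higher in 3 of 3 libraries. This comparison shares the mock libraries with GRP against mock, and its p-value does not allow for how the members were chosen. GRP still raised Sphk1 in the presence of RC, by 1.69 ± 0.040 against RC alone (adjusted p = 1.31e-14), although in 1 fit of all 72 libraries the same difference of 1.68 had an adjusted p of 0.129. GRP+RC lay below GRP by a log2 fold change of -0.60 ± 0.037.

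In 1064, Sphk1 was already high without GRP and varied more between libraries. The mock libraries held 112, 249 and 411 CPM and the GRP libraries 804, 1590 and 1036 CPM, with means of 257 ± 149.6 and 1144 ± 404 CPM (SD, n = 3). Every GRP library lay above every mock library, and the log2 fold change was 2.16 ± 0.49. Without a replicate block, it no longer passed the call when any 1 of the 3 replicate numbers was left out, with log2 fold changes of 2.01, 1.84 and 2.74. With the replicate number as a block and all libraries, it was 2.18 ± 0.32 (95% interval 1.48 to 2.88) and met the thresholds. RC gave 382, 773 and 364 CPM, which overlapped the mock range, and GRP+RC gave 472, 894 and 538 CPM, which overlapped both RC and GRP. Within same-numbered libraries, which pair in this line, GRP+RC was below GRP in 3 of 3 and above RC in 3 of 3, and RC was above mock in 2 of 3. GRP+RC against GRP was -0.87 ± 0.47, or -0.86 ± 0.30 with the replicate block. RC against mock was 0.98 ± 0.47 (95% interval -0.07 to 2.03, adjusted p = 1.00 from edgeR), and GRP+RC against RC was 0.32 ± 0.47 (95% interval -0.72 to 1.36, adjusted p = 1.00 from edgeR), so neither difference was detectable at this spread. With the block they were 0.99 ± 0.31 (95% interval 0.31 to 1.68, adjusted p = 0.539 from edgeR) and 0.33 ± 0.30 (95% interval -0.33 to 0.99, adjusted p = 1.00 from edgeR).

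In 1014-Grpr the level was lower throughout, with 5.29, 6.74 and 4.81 CPM in mock cells and 29.8, 61.0 and 34.9 CPM after GRP. The log2 fold change was 2.90 ± 0.28 and the groups did not overlap. RC alone gave 6.24, 7.79 and 6.16 CPM, which overlapped mock, with each library above the mock library of its number (0.26 ± 0.29, 95% interval -0.37 to 0.90, adjusted p = 1.00 from edgeR). With the block this was 0.28 ± 0.15 (adjusted p = 0.945 from edgeR). GRP+RC gave 13.2, 17.2 and 10.0 CPM, above every RC library and below every GRP library. Its difference from RC was 1.00 ± 0.28 (95% interval 0.39 to 1.61) and did not pass in edgeR's test (adjusted p = 0.336). DESeq2 gave 1.00 with an adjusted p of 0.0282, which passes both thresholds, and edgeR with the replicate number as a block, which pairs the libraries of this line, gave 0.99 with an adjusted p of 0.000144, just under the fold threshold. GRP+RC lay 1.64 ± 0.26 below GRP on the log2 scale.

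The other lines held little Sphk1 and no difference was seen. It ranged from 2.81 to 4.09 CPM over the 12 libraries of 1014-Ctrl and from 2.17 to 4.85 CPM over those of 1181-Grpr, the line with the least Grpr among those transfected with it. In 1181-Ctrl the replicates numbered 3 lay between 4.05 and 5.0 CPM and those numbered 1 and 2 between 0.651 and 1.40 CPM, in all 4 treatments. The log2 fold change of GRP against mock was 0.12 ± 0.34 in 1181-Grpr, 0.039 ± 0.20 in 1014-Ctrl (-0.078 ± 0.19 without the library that goes against its label) and -0.045 ± 0.97 in 1181-Ctrl. Sphk1 shares exon bases with the antisense gene Gm29292. That gene reached at most 3.02 CPM in any library and averaged 0.256 CPM in mock and 1.46 CPM in GRP cells of 1057, and the strand setting of the counting is not given in the sources used here, so reads of the pair may be mixed.

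**Figure D1:**
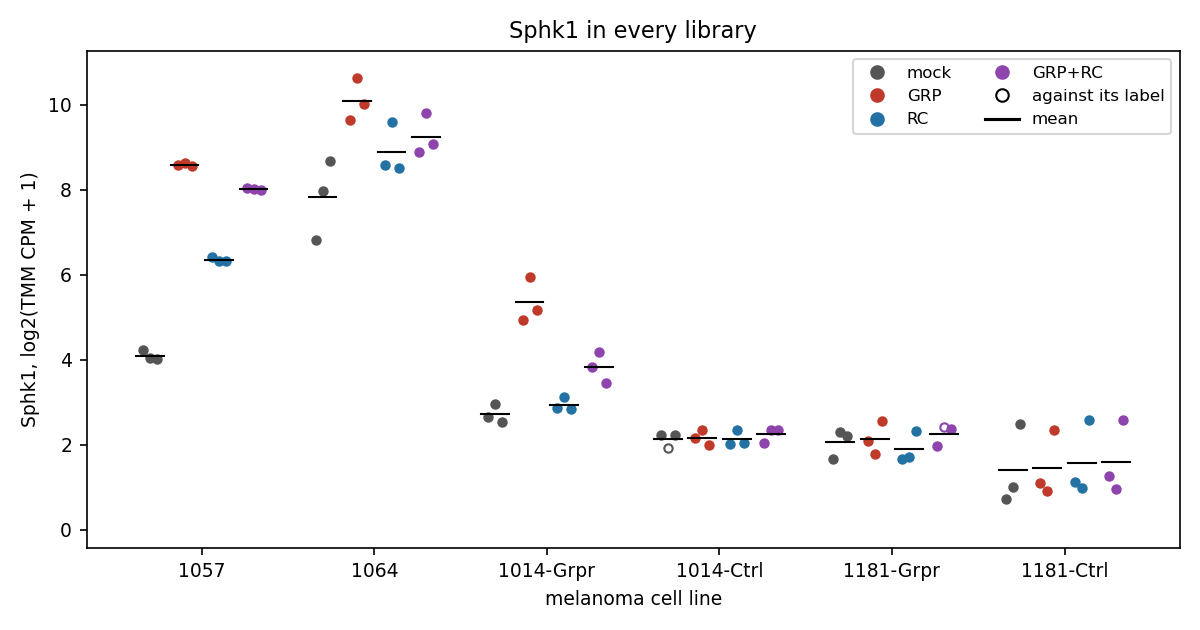
Sphk1 in all 72 libraries, as log2 of the TMM-normalised CPM plus 1 on the vertical axis, by line and treatment. Points are libraries, open points are the libraries that went against their labels, and bars are the mean of 3; in 1057 the mock, RC, GRP+RC and GRP libraries form 4 separate groups, and 1014-Ctrl, 1181-Grpr and 1181-Ctrl reach at most 5.0 CPM.

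Sphk2, the other kinase, stayed between 30.4 and 55.0 CPM in all 72 libraries. In 1057 it was 47.8, 46.7 and 46.4 CPM in mock and 45.2, 45.1 and 45.3 CPM in GRP cells, a log2 fold change of -0.027 ± 0.043. The GRP libraries lay just below the mock libraries there. In 1064 it was 34.6, 38.4 and 40.0 CPM in mock and 46.1, 45.1 and 47.3 CPM in GRP cells (0.30 ± 0.080), and these groups did not overlap. None of the tested comparisons called it. Part of its exon bases are also those of Dbp and Rpl18 on the other strand.

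The share of kinase transcripts that came from Sphk1 moved accordingly. On the authors' TPM scale, which corrects for length, Sphk1 made up 23.0% ± 1.22 (SD, n = 3) of the summed Sphk1 and Sphk2 level in mock cells of 1057, 88.1% ± 0.291 after GRP, 60.9% ± 0.192 after RC and 83.8% ± 0.647 after both. In 1014-Grpr the share was 12.7% ± 1.32 in mock, 51.0% ± 11.4 in GRP, 14.8% ± 2.11 in RC and 26.0% ± 4.53 in GRP+RC cells. In 1064 it was 82.9% ± 8.26 in mock and 95.2% ± 1.52 in GRP cells. In 1014-Ctrl, 1181-Grpr and 1181-Ctrl the mean share lay between 3.84% and 8.14% in every treatment.

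Among the receptors, S1pr3 was abundant in 1057 and 1064 only, and its level was higher after GRP in both. In 1057 it was 233, 195 and 202 CPM in mock cells, 635, 643 and 654 CPM after GRP, 368, 356 and 367 CPM after RC and 515, 532 and 509.8 CPM after both. As for Sphk1, the 4 treatments did not overlap and came in the order mock, RC, GRP+RC and GRP. The log2 fold change of GRP against mock was 1.64 ± 0.046. RC against mock gave 0.79 ± 0.046 (adjusted p = 1.07e-09 from edgeR) and GRP+RC against RC gave 0.52 ± 0.045 (adjusted p = 1.21e-07 from edgeR), both below the fold threshold. GRP+RC against GRP was -0.34 ± 0.045. S1pr3 shares exon bases with the long non-coding RNA gene Gm32834 on the other strand, so reads of the pair may be mixed.

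In 1064, S1pr3 was 428, 640.1 and 611 CPM in mock and 1102, 1248 and 931 CPM in GRP cells. The groups did not overlap, and the log2 fold change of 0.97 ± 0.22 fell just short of the fold threshold. RC gave 749, 969 and 577 CPM and GRP+RC gave 806, 942 and 666 CPM, so that GRP+RC lay within the range of RC (0.067 ± 0.22, 95% interval -0.42 to 0.55, adjusted p = 1.00 from edgeR). RC against mock was 0.45 ± 0.22 (95% interval -0.04 to 0.94, adjusted p = 1.00 from edgeR).

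S1pr3 was close to undetected in the 1014 lines. In 1014-Grpr it had 0 counts in 11 of 12 libraries and 2 counts in GRP replicate 3, which is under the floor. In 1014-Ctrl the libraries had 0 to 3 counts, except that the library labelled mock replicate 2, which goes against its label, held 83 counts (3.43 CPM). In 1181-Grpr the range was 2.23 to 6.4 CPM, with 0 counts in the GRP+RC library that goes against its label. In 1181-Ctrl the replicates numbered 1 held 1.16 to 1.44 CPM and the others 0.0305 to 0.242 CPM, in every treatment.

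S1pr1, the Gi-coupled receptor best known for lymphocyte egress and for endothelial barrier function, was low everywhere but followed the same order in 1057. It was 4.11, 3.87 and 3.91 CPM in mock cells, 10.4, 9.70 and 10.3 CPM after GRP, 5.62, 5.23 and 4.79 CPM after RC and 6.98, 7.92 and 6.23 CPM after both. The groups did not overlap. The log2 fold change of GRP against mock was 1.38 ± 0.093, that of RC against mock 0.39 ± 0.10 (adjusted p = 0.00896 from edgeR), that of GRP+RC against RC 0.44 ± 0.094 (adjusted p = 0.00234 from edgeR) and that of GRP+RC against GRP -0.55 ± 0.086. Of the 4 endothelial markers, Cdh5 (3.99 TPM) and Tek (1.51 TPM) averaged over 1 TPM in this line while Pecam1 and Kdr averaged 0.04 and 0.06 TPM, with a summed level of 4.87 to 6.24 TPM against 2.37 to 4.05 TPM in 1064, where S1pr1 was lower, and at most 0.45 TPM in the 1014 and 1181 lines, and the part of other cells in the S1pr1 level was not tested.

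In 1064, S1pr1 rested on few reads, with 8, 9 and 6 counts in the mock libraries and 63, 34 and 12 counts in the GRP libraries. In CPM these were 0.331, 0.477 and 0.207 against 2.70, 1.74 and 0.475, so GRP replicate 3 lay within the mock range. The log2 fold change was 2.30 ± 0.65 and was not called by edgeR, while DESeq2 gave 2.32 and called it. With the replicate number as a block, which pairs the libraries of this line, it was 2.22 ± 0.44 and was called, as was GRP+RC against GRP, at -1.24 ± 0.38 in place of -1.28 ± 0.60. In 1014-Grpr, S1pr1 had between 1 and 25 counts per library and did not pass the filter on low counts. In 1014-Ctrl it held 0.114 to 0.455 CPM, except for 1.16 CPM in the mock library that goes against its label. In 1181-Grpr and 1181-Ctrl its range was 0.114 to 3.59 CPM, with its lowest value in the GRP+RC library that goes against its label, and GRP against mock gave -0.19 ± 0.70 and 0.23 ± 0.61.

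S1pr2, which signals largely through G12/13, was measured well in every line and did not follow the other receptors. In 1057 it was 9.38, 9.38 and 9.14 CPM in mock, 9.82, 10.0 and 9.21 CPM in GRP, 9.30, 10.1 and 10.3 CPM in RC and 8.12, 6.87 and 9.31 CPM in GRP+RC cells. GRP against mock was 0.085 ± 0.090, and GRP+RC against RC was -0.28 ± 0.092 (adjusted p = 0.0382 from edgeR), a small decrease with ranges that just touched. In 1014-Grpr it was 67.4, 55.7 and 64.5 CPM in mock and 78.0, 68.0 and 81.8 CPM in GRP cells (0.29 ± 0.091). In 1064 replicate 1 was the highest in each treatment, at 38.5 to 50.3 CPM, and the other replicates lay between 21.6 and 28.8 CPM.

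**Figure D2:**
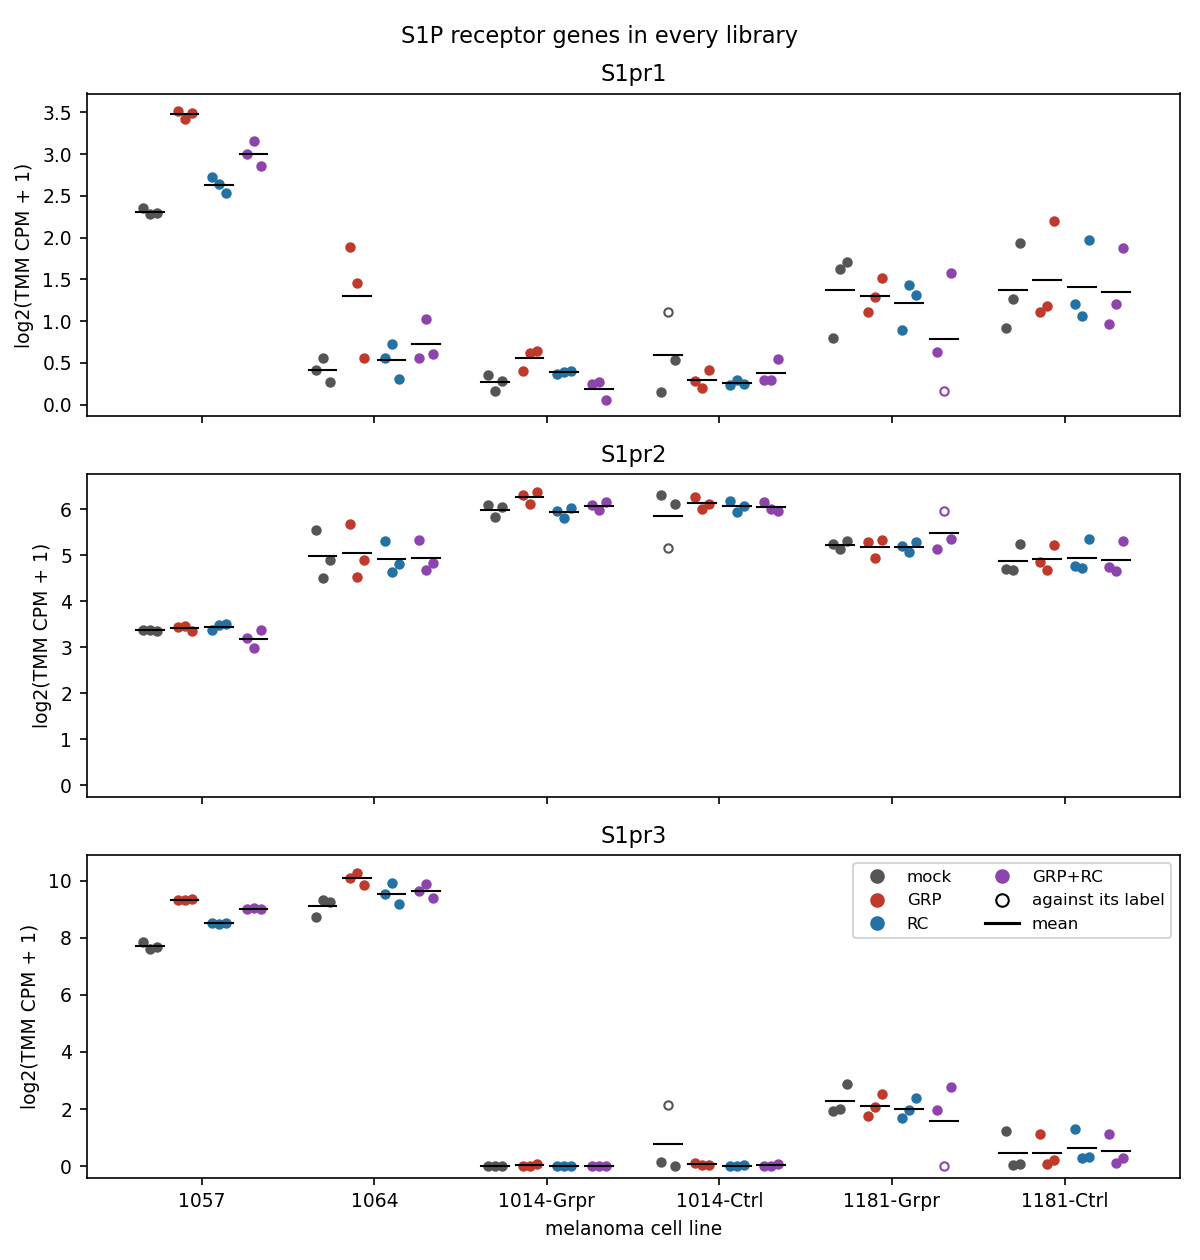
S1pr1, S1pr2 and S1pr3 in all 72 libraries, as log2 of the TMM-normalised CPM plus 1, each with its own vertical scale. Points are libraries, open points the libraries that went against their labels, and bars the mean of 3; S1pr3 is at least 195 CPM in 1057 and 1064 and at or below 6.4 CPM elsewhere, whereas S1pr2 is lowest in 1057.

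The lines thus fell into those in which S1pr3 and those in which S1pr2 made up most of the S1P receptor transcripts. On the TPM scale, S1pr3 was 94.9% ± 0.391 (SD, n = 3) of the summed S1pr1 to S1pr5 level in mock cells of 1057 and 96.5% ± 2.04 in 1064. S1pr2 made up 98.8% ± 0.535 in 1014-Grpr, 76.4% ± 7.56 in 1181-Grpr and 84.6% ± 1.79 in 1181-Ctrl. In 1014-Ctrl the mean was 92.3% ± 11.4 with the library that goes against its label, and the lowest library had 79.1%, while the other treatments averaged 98.5% to 99.2%. The summed receptor level was 149 ± 10.8 TPM in mock and 433 ± 5.21 TPM in GRP cells of 1057, and 395 ± 61.1 and 705 ± 99.9 TPM in 1064. In the 4 other lines the group means lay between 16.5 and 33.0 TPM. In bulk RNA, fewer expressing cells and less RNA per cell cannot be told apart.

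**Figure D3:**
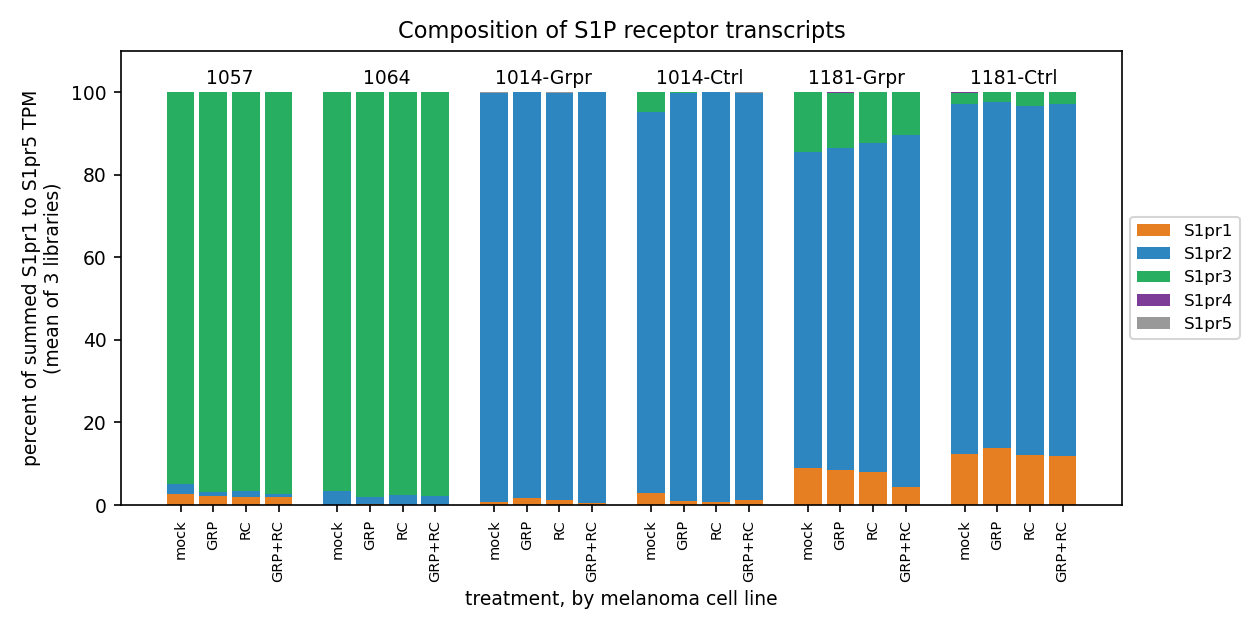
Share of each S1P receptor gene in the summed TPM of S1pr1 to S1pr5, in percent, as the mean of 3 libraries for each line and treatment. S1pr3 fills 94.9% or more of every bar in 1057 and 1064, and S1pr2 76.4% or more of every bar in the other lines.

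The enzymes that remove S1P differed much less between treatments. Sgpl1, the lyase, ranged from 150.4 to 320 CPM over all libraries. In 1014-Grpr it was 233, 225 and 232 CPM in mock and 286, 291 and 314 CPM in GRP cells, groups that did not overlap, with a log2 fold change of 0.38 ± 0.052. RC gave 231, 233 and 229.6 CPM and GRP+RC 259, 246 and 244 CPM in that line, and GRP+RC against RC was 0.11 ± 0.052 (95% interval -0.007 to 0.22, adjusted p = 0.753 from edgeR). In 1064 the difference between GRP and mock was 0.40 ± 0.13, and in 1057 it was 0.062 ± 0.034.

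Sgpp1, the main S1P phosphatase transcript, was lower after GRP in 1057 and 1014-Grpr. In 1014-Grpr it was 54.0, 53.3 and 52.4 CPM in mock and 41.1, 40.3 and 37.4 CPM in GRP cells, and in 1057 it was 30.5, 31.6 and 30.2 CPM against 26.7, 26.7 and 26.1 CPM. The groups did not overlap in either line, and the log2 fold changes were -0.42 ± 0.059 and -0.19 ± 0.041. In 1057 it also fell after RC alone (-0.17 ± 0.041, adjusted p = 0.0053 from edgeR), with 26.7, 27.2 and 28.3 CPM. In 1064 Sgpp1 was almost absent, with 9, 12 and 20 counts in mock and 5, 1 and 12 counts in GRP libraries (-1.12 ± 0.57, not called).

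Sgpp2 was near the limit of detection in every line, with 0 to 24 counts per library. It reached at most 0.820 CPM, in 1181-Grpr, where the replicates numbered 2 of mock, GRP and RC held 16, 24 and 16 counts and the other libraries 0 to 7. It passed the filter on low counts in that line only, and no difference was called. Farsb overlaps it on the other strand.

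**Figure D4:**
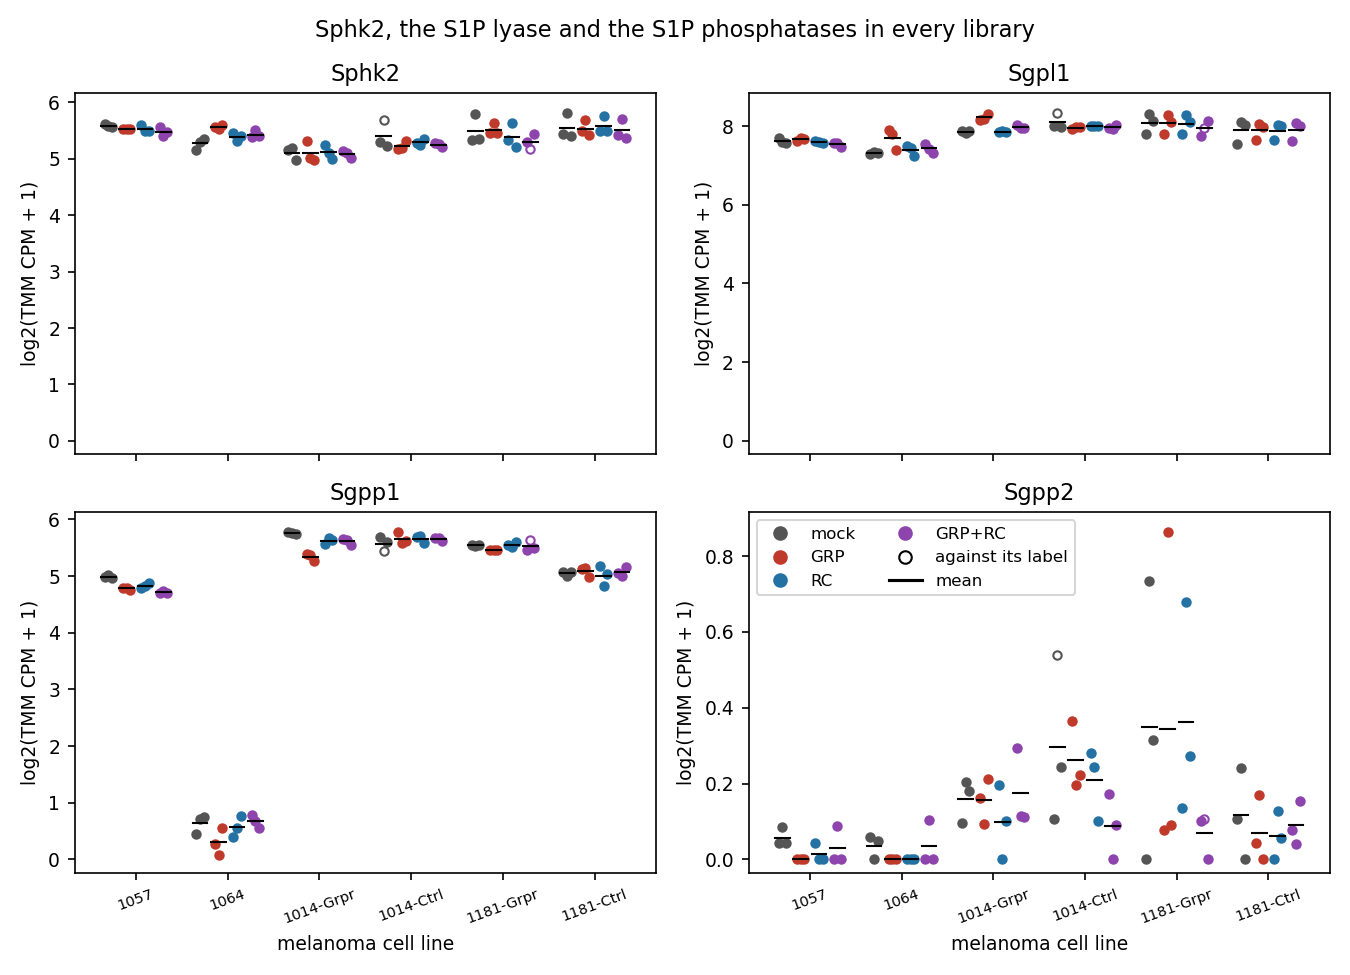
Sphk2, Sgpl1, Sgpp1 and Sgpp2 in all 72 libraries, as log2 of the TMM-normalised CPM plus 1, each with its own vertical scale. Points are libraries, open points the libraries that went against their labels, and bars the mean of 3; Sgpp1 is at most 0.727 CPM in 1064 and at least 24.9 CPM in the other lines.

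Counted over the lines, the members that passed the filter on low counts were 7 of 8 in 1057, 1064 and 1181-Ctrl, 5 in 1014-Grpr (without S1pr1, S1pr3 and Sgpp2), 6 in 1014-Ctrl (without S1pr3 and Sgpp2) and 8 in 1181-Grpr. A call required a log2 fold change beyond 1 in either direction together with an adjusted p below 0.05. For GRP against mock and for GRP+RC against GRP these counts only describe values known when the members were chosen, and nothing is read from them against the share of all genes. For GRP against mock, 3 of 7 members met the thresholds in 1057 (Sphk1, S1pr3 and S1pr1, all higher), where 6.46% of all genes tested did. Sphk1 alone met them in 1064, where 2.32% of genes were called, and in 1014-Grpr, where 4.01% were called. No member was called in 1014-Ctrl, 1181-Grpr or 1181-Ctrl, where 0% of genes were called by edgeR and DESeq2, with 562, 45 and 37 genes at an unadjusted p under 0.05.

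For RC against mock, Sphk1 in 1057 was the only call, against a background of 0.888% of genes. In the 5 other lines 0% of genes were called by edgeR and DESeq2, and 129 genes in 1064, 161 in 1014-Grpr, 694 in 1014-Ctrl, 33 in 1181-Grpr and 39 in 1181-Ctrl lay below an unadjusted p of 0.05. With the replicate block 1 gene was called in 1014-Grpr. For GRP+RC against RC, Sphk1 in 1057 was again the only call, against 0.916% of genes. In the other lines 0% of genes were called by edgeR, with 24, 952, 61, 264 and 41 genes at an unadjusted p under 0.05 in 1064, 1014-Grpr, 1014-Ctrl, 1181-Grpr and 1181-Ctrl. DESeq2 called 10 genes in 1014-Grpr, Sphk1 among them, and 0 in the other 4, and the replicate block gave 32 calls in 1014-Grpr. For GRP+RC against GRP, Sphk1 met the thresholds, with a lower level, in 1014-Grpr, where 1.73% of genes did, and no member met them in 1057 (1.02% of genes), in 1064 (0.0145%) or in 1014-Ctrl, 1181-Grpr and 1181-Ctrl (0% by edgeR and DESeq2, with 75, 320 and 36 genes at an unadjusted p under 0.05).

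**Figure D5:**
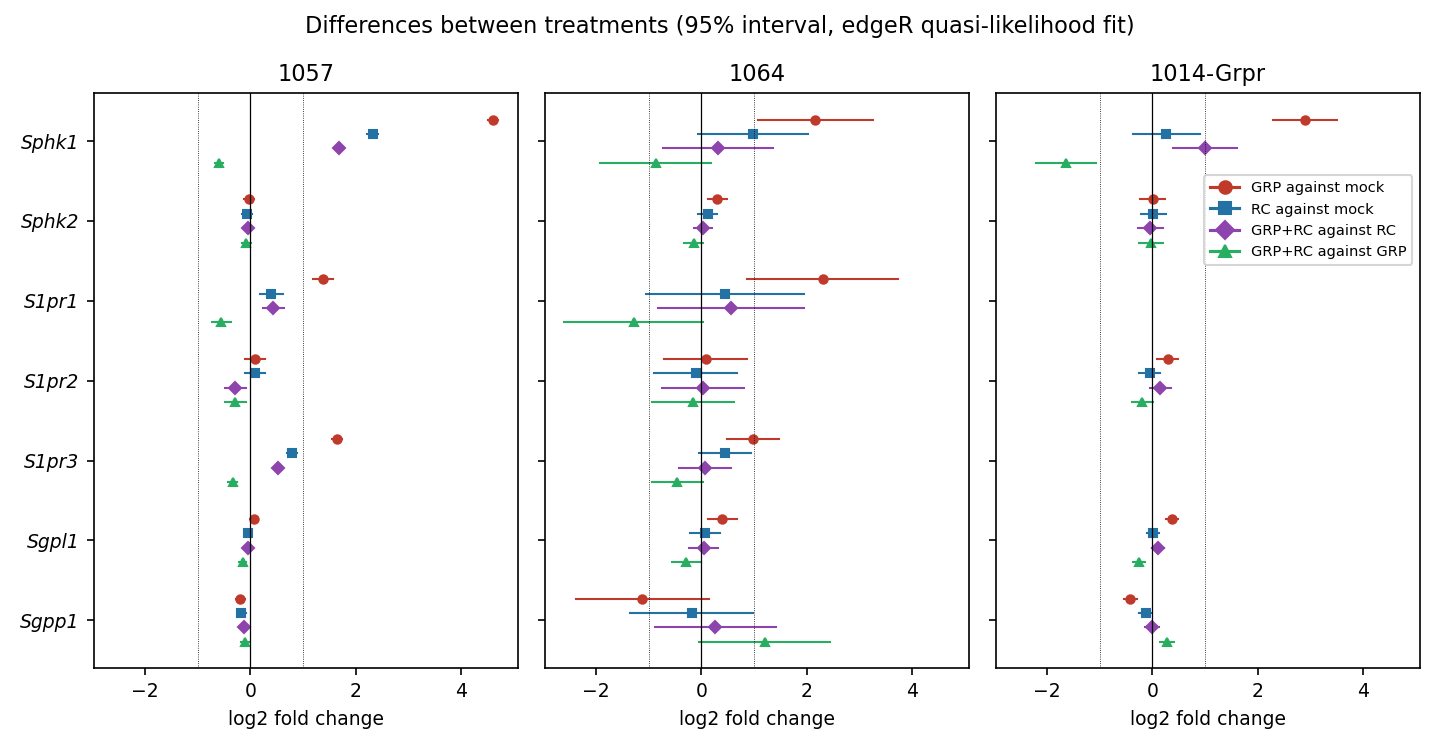
Log2 fold changes of the members that passed the filter on low counts in 1057, 1064 and 1014-Grpr, on a shared horizontal axis, with 95% intervals from the edgeR fit and dotted lines at the call threshold of 1 in either direction. Sphk1 reaches 4.60 for GRP against mock in 1057, S1pr1 and S1pr3 lie to the right of 0 for GRP against mock wherever they are drawn, and Sphk2 and S1pr2 lie between -0.28 and 0.30 in every comparison drawn.

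Whether the lines differed in these responses was tested for the comparisons that do not use GRP against mock, a test added after the data were seen. RC against mock for Sphk1 was larger in 1057 than in 1064 by 1.34 ± 0.50 on the log2 scale (95% interval 0.29 to 2.40, unadjusted p = 0.0151, adjusted p = 1.00 from edgeR), where 0% of 15090 genes passed and 304 had an unadjusted p under 0.05. GRP+RC against RC was larger by 1.37 ± 0.50 (95% interval 0.33 to 2.42, unadjusted p = 0.0126, adjusted p = 1.00 from edgeR), where 0.00663% of genes passed. Between 1014-Grpr and 1014-Ctrl, without the library that goes against its label, the difference of GRP+RC against RC for Sphk1 was 0.87 ± 0.36 (95% interval 0.12 to 1.62, unadjusted p = 0.0253, adjusted p = 1.00 from edgeR), and that of RC against mock was 0.38 ± 0.39 (95% interval -0.44 to 1.20). In both of these tests 0% of 14404 genes passed, with 648 and 190 at an unadjusted p under 0.05. Sphk1 therefore did not pass over all genes in any of the 4 tests. These fits used no replicate block, although the replicate numbers pair the libraries of 1064 and 1014-Grpr. The same differences with a block were not computed.

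Without any treatment the members already differed between 1057 and 1064. Sphk1 was lower in 1057 by a log2 fold change of -4.00 ± 0.55 (adjusted p = 3.44e-05 from edgeR on the 18 mock libraries), and S1pr2 by -1.79 ± 0.29 (adjusted p = 0.000126). S1pr1 was higher in 1057 by 3.57 ± 0.66 (adjusted p = 0.000406) and Sgpp1 by 5.75 ± 0.16 (adjusted p = 2.83e-12). These 4 of 7 members tested were called in a pair of lines in which 25.0% of all genes were called. S1pr3 was lower in 1057 by -1.42 ± 0.78 and did not pass (adjusted p = 0.153), but passed without the 2 libraries that go against their labels (-1.40 ± 0.43, adjusted p = 0.0141).

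The transfected lines were compared with their controls in the same way. Between 1014-Grpr and 1014-Ctrl no member was called, where 0.0846% of genes were called. DESeq2 called S1pr3 lower in 1014-Grpr, a difference that rests on the 83 counts of the 1014-Ctrl library that goes against its label. Between 1181-Grpr and 1181-Ctrl, where 6.32% of genes were called, Sgpp1 was higher by 0.51 ± 0.12 (adjusted p = 0.0103), below the fold threshold. S1pr3 was 3.12 ± 1.09 higher without passing (adjusted p = 0.103 from edgeR), and passed without the libraries that go against their labels (3.12 ± 0.68, adjusted p = 0.00652). Xist also differed between mock cells of 1181-Grpr and 1181-Ctrl (206 and 0.350 CPM). Over all treatments, with the library against its label kept, the melanocyte markers Tyrp1 (2237 and 2.66 TPM) and Dct (11425 and 418 TPM) differed as well. Sox10 (1346 and 1268 TPM) and Mitf (269 and 228 TPM) lay closer. The part of Grpr in these differences was not tested.

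Between the control lines, 1181-Ctrl and 1014-Ctrl, 16.4% of genes were called. S1pr2 was lower in 1181-Ctrl by -1.07 ± 0.28 (adjusted p = 0.00871), or by -1.36 ± 0.23 (adjusted p = 0.000195) without the library that goes against its label, a call lost from all libraries when the replicates numbered 1 (-0.76, adjusted p = 0.129) or 3 (-1.18, adjusted p = 0.114) were left out. Sgpp1 was lower by -0.56 ± 0.12 (adjusted p = 0.00239). S1pr1 was higher by 1.56 ± 0.62 (adjusted p = 0.0616) and passed at 2.54 ± 0.65 (adjusted p = 0.00429) without the libraries that go against their labels, while DESeq2 called it on all libraries (1.59, adjusted p = 0.0361). The lines 1181 and 1014 differ in genotype and sex as well as origin, which cannot be told apart here, whereas 1057 and 1064 share genotype and sex and differ as lines.

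Over the 6 lines, the mock level of Sphk1 ran from 257 ± 149.6 CPM in 1064 through 16.1 ± 1.38 in 1057 and 5.61 ± 1.01 in 1014-Grpr to 3.39 ± 0.508 in 1014-Ctrl (3.69 ± 0.047 over the 2 libraries that match their label), 3.25 ± 0.947 in 1181-Grpr and 2.11 ± 2.22 in 1181-Ctrl (SD, n = 3), and only the last 3 overlapped. S1pr3 ran from 559.7 ± 115 CPM in 1064 and 210.2 ± 20.5 in 1057 to 4.06 ± 2.02 in 1181-Grpr, with 1014-Ctrl, 1181-Ctrl and 1014-Grpr below. Over the 2 libraries that match their label, S1pr3 in 1014-Ctrl was 0.057 ± 0.081 CPM, below 1181-Ctrl (0.472 ± 0.752). The range of 1181-Grpr then lay above that of 1181-Ctrl without overlap. S1pr2 was highest in 1014-Grpr (62.5 ± 6.12 CPM) and 1014-Ctrl (59.9 ± 22.5, or 72.6 ± 7.13 over the 2 libraries that match their label) and lowest in 1057 (9.30 ± 0.140). Without the library that goes against its label, 1014-Ctrl was the highest, and the ranges of 1014-Ctrl, 1014-Grpr and 1181-Grpr did not overlap, while those of 1181-Grpr, 1064 and 1181-Ctrl did. Sphk2 lay between 33.6 ± 2.70 CPM in 1014-Grpr and 46.96 ± 0.748 in 1057, and every neighbour in its order overlapped, except 1014-Ctrl (37.2 ± 1.24) and 1014-Grpr once that library was left out. Sgpl1 lay between 159 ± 2.36 CPM in 1064 and 275 ± 38.7 in 1014-Ctrl, which fell to 253 ± 1.36 without that library, below 1181-Grpr (271 ± 45.2). Per length, Sgpl1 was the most abundant member in the 4 lines derived from 1014 and 1181, at 136 to 165 TPM on average, and S1pr3 was the most abundant in 1057 (141 ± 10.9 TPM) and 1064 (382 ± 66.5 TPM).

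The surrounding pathway was described with 40 genes of ceramide synthesis and breakdown, S1P transport, the other S1P receptors and the lipid phosphate phosphatases, of which 29 to 33 passed the filter. After GRP, 2 of 31 were called in 1057, close to the 6.46% of all genes. Sgms2, a sphingomyelin synthase, was higher by 1.50 ± 0.14 and Cers4, a ceramide synthase, lower by -1.11 ± 0.031. In 1014-Grpr 2 of 29 were called, beside 4.01% of all genes, both higher, Sgms2 by 1.57 ± 0.21 and Plpp1, a lipid phosphate phosphatase of the cell surface, by 2.14 ± 0.20. None of 29 was called in 1064, beside 2.32% of all genes. The median log2 fold change of the list was -0.022 in 1057, -0.016 in 1064 and -0.070 in 1014-Grpr, beside -0.011, -0.025 and -0.016 over all genes tested.

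GRP+RC lay below GRP for Sgms2 in 1057 (-1.44 ± 0.14) and in 1014-Grpr (-1.47 ± 0.21), and for Plpp1 in 1014-Grpr (-1.19 ± 0.19), a call lost without replicate 2. None of the listed genes was called by edgeR for RC against mock or GRP+RC against RC in any line. The medians of the list in 1057 were -0.030 and -0.017 in these comparisons, beside -0.0055 and -0.0069 over all genes. Between mock cells of 1057 and 1064, 4 of 33 were called higher in 1057 and 4 lower, together a share near the 25.0% of all genes. The largest differences were those of Sptlc3, a subunit of serine palmitoyltransferase (3.75 ± 0.71, adjusted p = 0.0011 from edgeR), and Sgms2 (3.17 ± 0.48, adjusted p = 7.69e-05). The S1P exporters moved in opposite directions, Spns2 higher by 1.52 ± 0.59 (adjusted p = 0.0448) and Mfsd2b lower by -1.69 ± 0.37 (adjusted p = 0.00164), though Spns2 no longer passed under 7 of the alternatives, DESeq2 among them (1.54, adjusted p = 0.0529).

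Likeness to the members was measured over the 24 means of line and treatment as Pearson's r of log2(CPM + 1) among 12514 genes, as a description, since these means share 6 lines. The libraries that go against their labels were kept in these means, and r without them was not computed. Sphk1 was most like Slc25a37 (0.994), Ptpn1 (0.991) and Rock2 (0.983), and S1pr3 most like Prr5 (0.991), Col25a1 (0.991) and Tlr12 (0.990). Sgpp1, with its near absence in 1064, was most like Car14 (1.00), Ptgfrn (0.992) and Ipo11 (0.989). S1pr2 was most like Cmtm5 (0.989), Anxa6 (0.989) and Man2b2 (0.989), and S1pr1 most like Usmg5 (0.984), Pawr (0.977) and Lrig1 (0.969). The values of Sgpl1 (Rnf24 0.951, Fip1l1 0.939 and Get4 0.937) and Sphk2 (Ppp1r9a 0.929, Zfp592 0.927 and B3gat3 0.925), which varied least, were lower.

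Over the 18 differences from the mock mean of the same line, in which the 3 differences of a line share its mock libraries, Sphk1 was most like Nr4a3 (0.982), Nln (0.981), Ticam1 (0.977), Gpat4 (0.976) and Nus1 (0.976). Nr4a3 encodes an orphan nuclear receptor known as an immediate early gene. Among the other members, r with Sphk1 over the same differences was 0.865 for S1pr1, 0.858 for S1pr3, 0.385 for Sgpl1, 0.210 for Sphk2, -0.223 for S1pr2 and -0.753 for Sgpp1. The libraries that go against their labels were kept here too, and r without them was not computed. For S1pr2 they held 34.5 CPM beside 77.6 and 67.5 CPM in 1014-Ctrl mock, and 61.5 CPM beside 34.1 and 40.0 CPM in 1181-Grpr GRP+RC.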

How the data were processed

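RNA was sequenced from 72 libraries of 6 mouse melanoma lines, prepared with a strand-marking polyA kit. The submitters' processing notes name STAR, FastQC 0.11.5 and GRCm38.p5 (mm10), and the authors deposited raw counts per gene. The authors also deposited TPM values, in which the columns of 1057 use a decimal comma that was read as a point. Per the study's methods, STAR also made the count matrices, and the strand setting is not given in the sources used here. No row without a gene name was used. Ensembl identifiers were paired with symbols for 99.6% of the 50600 genes through GENCODE vM21, which also gave positions; the study names an earlier release.

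Lines, treatments and replicate numbers came from the sample labels. The members and the gene lists were chosen with earlier results of these data known. In R 4.3.3, counts were filtered with filterByExpr, normalised by TMM and tested with edgeR 4.0.16 (quasi-likelihood test, Benjamini-Hochberg adjustment over all genes tested), with 1 fit per line of 12 libraries and 1 fit of the 18 mock libraries for differences between lines. Calls needed an adjusted p below 0.05 with a log2 fold change beyond 1 either way. Standard errors were taken as the size of the fold change over the root of the F statistic. Differences of effects between lines were fitted on the libraries of both lines, without the library that went against its label, and were added after the data were seen. The order of the lines without the libraries against their labels and directions within same-numbered libraries were added likewise. DESeq2 1.42.0, limma 3.58.1 on log2(TPM + 1), fits without the filter, without each replicate number, without the 2 libraries against their labels, with the replicate number as a block and with all 72 libraries were alternatives. The steps were tested on simulated data.

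No replicate pair of a group agreed within sampling noise (lowest chi-square per gene 2.44 over 72 pairs). Deviations of same-numbered libraries from their group means correlated above 0.1 in every pair in 1064 (0.564 to 0.822), 1014-Grpr (0.372 to 0.514) and 1181-Ctrl (0.712 to 0.857), so the numbers were taken to pair the libraries of these lines. This did not hold in 1057 (-0.143 to 0.0997), 1014-Ctrl (0.081 to 0.466, mean 0.307) and 1181-Grpr (-0.012 to 0.742, mean 0.390). Lines 1014-Ctrl and 1181-Grpr each hold a library that goes against its label, which was kept here. Whether the numbers pair their remaining libraries was not tested.

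The text names all members, Grpr, Cdh1, Ddx3y, Xist and the listed pathway genes called in a treatment comparison. It also names the 3 genes most like each member and the 5 most like Sphk1 in response. Pathway genes named for the untreated lines were chosen after their values were seen. Promoter sequences are from RefSeq for GRCm38.p6.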

Additional observations from a re-analysis of the deposited data

How the results depend on the processing

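Of 594 values recomputed for single genes, none changed direction, 547 kept their side of the thresholds, 32 lost a call and 15 gained one. They cover only results called in the main fits and those of Sphk1, S1pr1 and S1pr3 in 1057, 1064 and 1014-Grpr. That choice favours a stable direction. Without the fold threshold, members called rose from 5 to 10 for GRP against mock, from 1 to 8 for GRP+RC against GRP, from 1 to 4 for GRP+RC against RC and from 1 to 4 for RC against mock, and genes of the pathway list from 4 to 34, 3 to 19, 0 to 9 and 0 to 8, and from 13 to 31 between untreated lines. With the replicate block, 2 members were called for GRP+RC against GRP, also without the 2 libraries against their labels. Beyond the blocked values given with the results and S1pr1 between 1181-Ctrl and 1014-Ctrl (1.62, adjusted p = 0.0471 from edgeR), the block changed no call of a member. One fit of all 72 libraries called 2 members for GRP+RC against GRP, 0 for GRP+RC against RC and 9 between untreated lines, and 1 listed gene for RC against mock; S1pr1 (1.36) and S1pr3 (1.62) lost their calls for GRP against mock in 1057. That fit also called 392 genes for GRP and 394 for RC against mock in 1014-Ctrl, where 0 were called without the library against its label in the fit of the line alone. DESeq2 called 2 members for GRP+RC against RC. Between untreated lines, 5 members were called, 8 without the libraries against their labels, with or without the block. Leaving out each replicate number gave 4 calls in each case for GRP against mock, 4 to 6 between untreated lines, and 8 to 20 for the pathway list there. With TPM in place of CPM, 6 lines changed rank for Sphk2, 2 for S1pr2 and 2 for Sgpl1. The cause of these changes was not tested. Among all log2 fold changes of members in the affected comparisons, 10 of 84, none of them called, changed sign without the 2 libraries against their labels, S1pr3 between 1181-Ctrl and 1014-Ctrl the most (-1.30 to 2.93, not called). Depth limits S1pr1 and Sgpp1 in 1064 (at most 63 and 20 counts per library), S1pr3 in the 1014 lines and Sgpp2.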

Other observations

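In 1181-Ctrl the levels of several members differed between replicate numbers in the same way in each of the 4 treatments. Sgpl1 was lowest in replicate 1, at 186 to 198 CPM, and highest in replicate 2, at 260.1 to 272 CPM. Sphk2 was highest in replicate 2, at 50.3 to 55.0 CPM, with 40.4 to 44.2 CPM in the others. S1pr1 was highest in replicate 3, at 2.66 to 3.59 CPM, with 0.881 to 1.40 CPM in the others. S1pr2 was also highest in replicate 3, at 36.2 to 39.7 CPM, with 24.1 to 27.7 CPM in the others. The sister line 1181-Grpr shared part of this in mock, GRP and RC cells. There Sgpl1 was lowest in replicate 1 (220 to 223 CPM) and highest in replicate 2 (310 to 313 CPM). Sphk2 was also highest in replicate 2, at 48.4 to 54.7 CPM. S1pr1 was highest in replicate 3 in mock and GRP cells but in replicate 2 in RC cells.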
